A study of Oryza sativa with 4 samples.

Results

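The floral organ identity MADS-box genes of rice were followed across 4 Affymetrix Rice Genome arrays, a 1-colour platform that measures a transcript with a probe set made of many short oligonucleotides. Members were the genes whose symbol or synonym is MADS1, MADS7 or MADS8 (E class), MADS2, MADS4 or MADS16 (B class), MADS3 or MADS58 (C class), and MADS13 or MADS21 (D class). All 10 were on the array, out of 17905 genes with a probe set annotated to 1 gene, and each was read by 1 probe set. RNA came from whole rice spikelets of 2 genotypes at 2 stages of anther development. The groups, with 1 array each, were OsCPK21-RNAi spikelets at stage 12, ZH11 spikelets at stage 12, OsCPK21-RNAi spikelets at stage 9 and ZH11 spikelets at stage 9. ZH11 is the wild-type cultivar and the background of the RNAi plants, which carry an RNA interference construct against the calcium-dependent protein kinase OsCPK21. All plants grew in a field without treatment. According to the labels the RNAi plants were of 3 lines, and nothing says whether spikelets of these lines were combined. With no replicate, no difference below could be tested, and the values describe these 4 arrays.

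MADS-box proteins of the MIKC type bind DNA as dimers and larger complexes, and combinations of their classes set the identity of each floral organ. In rice, B and C genes together specify stamens, B genes also specify lodicules, C genes act in stamens and in ending the floral meristem, D genes act in ovules, and E proteins take part in complexes of all these classes. A spikelet of either stage therefore holds several organs that express different members. In such bulk tissue, fewer cells of one organ and less RNA per cell cannot be told apart.

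The silenced gene followed the sample titles. OsCPK21 had a signal of 17.6 in RNAi and 2719 in ZH11 at stage 12, and of 206 in RNAi and 1940 in ZH11 at stage 9. The genotype characteristic in the labels names the opposite genotype on every sample, and every genotype direction below would turn if that field were right. Signals below a floor of 71.1 were raised to it before ratios were taken, "past 2-fold" means a ratio of at least 2 with the brighter array above the floor, and a ratio with 1 array at the floor is a bound. Shares and medians of all genes measured cover genes whose brighter array is above the floor, so their number differs by comparison. Between stages it was 16056 genes in RNAi and 16378 in ZH11, and between genotypes 15966 at stage 12 and 15358 at stage 9. For the difference between stages it was 14699 genes, with an array above the floor at each stage. Markers and floral regulators are called measured where a probe set reads them, at any signal. RNA quality measures also differed between arrays. The 3-prime to 5-prime ratio of the actin control probe sets was 8.53 at stage 12 and 4.20 at stage 9 in RNAi. In ZH11 it was 10.3 at stage 12 and 3.89 at stage 9. For the GAPDH control it was 3.48 at stage 12 in both genotypes, and at stage 9 it was 2.50 in RNAi and 1.96 in ZH11. Both ratios were thus higher in RNAi at stage 9, and at stage 12 the actin ratio was higher in ZH11. The part of RNA quality in the stage and genotype ratios was not tested.

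**Figure D1:**
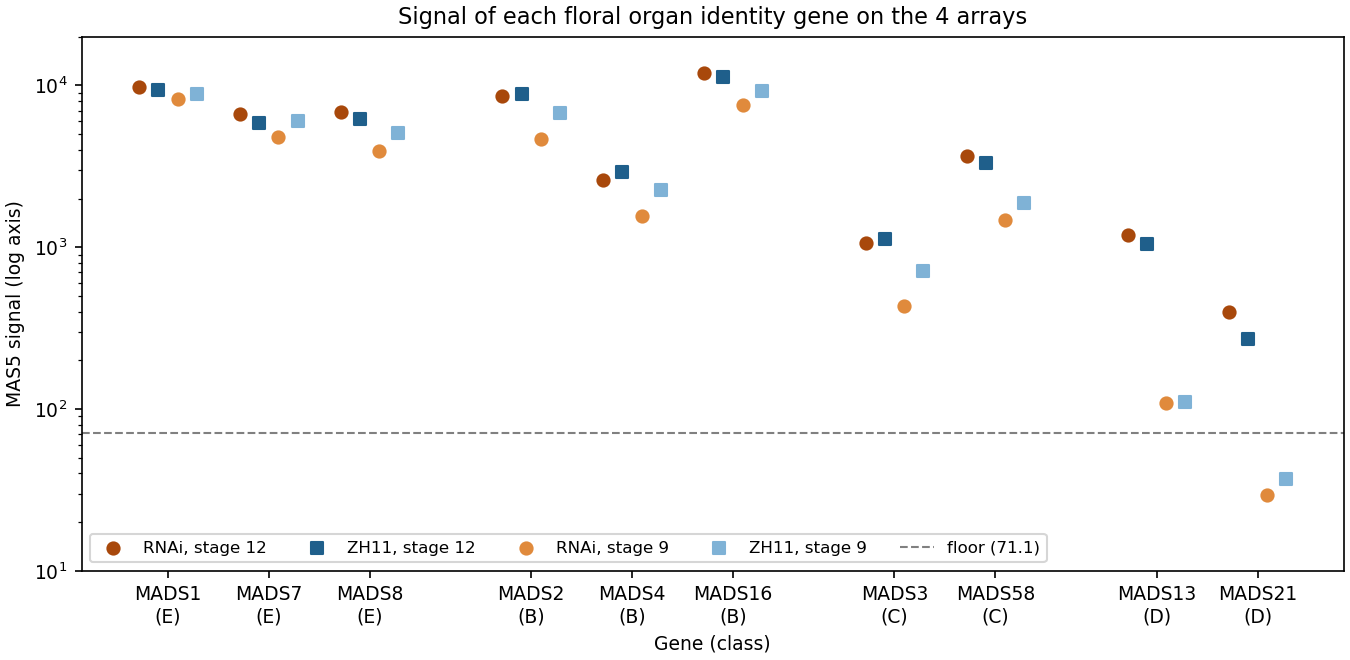
MAS5 signal (log axis) of the 10 members, grouped by class, with 1 point for each of the 4 arrays and the floor of 71.1 as a dashed line. The D class genes MADS13 and MADS21 have their stage 12 points far above their stage 9 points, and MADS21 lies below the floor on both stage 9 arrays. Each probe set has its own brightness, so heights compare between arrays and not between genes.

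The classes differed most between stages. The D class genes were several-fold higher at stage 12 than at stage 9 in both genotypes. By class medians the C class stood next, then the B class, and the E class differed least, though single B and E genes overlapped in RNAi. Past 2-fold and higher at stage 12 were 4 of 10 members in RNAi, against 14.9% of all genes measured, and 2 of 10 in ZH11, against 17.1%. No member was past 2-fold and lower at stage 12, against 15.8% of genes in RNAi and 15.7% in ZH11. Of the 9 members above the floor on all 4 arrays, all had ratios above 0 in RNAi, and all but MADS7 did in ZH11. The shares among genes above the floor on both arrays were 48.6% in RNAi and 52.1% in ZH11. MADS21 was above the floor at stage 12 only, so its stage ratio could only be above 0. The median log2 ratio of stage 12 to stage 9 over the 10 members was 0.85 in RNAi and 0.37 in ZH11, beside -0.0045 and 0.07 over all genes measured.

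MADS13, which specifies ovule identity, had a signal of 1190 at stage 12 and 109 at stage 9 in RNAi spikelets. In ZH11 it had 1047 at stage 12 and 110 at stage 9. Both stage 12 arrays were far above both stage 9 arrays, 10.96-fold in RNAi and 9.49-fold in ZH11. MADS21, a D-lineage gene related to MADS13, had 397 at stage 12 and 29.6 at stage 9 in RNAi. In ZH11 it had 270 at stage 12 and 37.1 at stage 9. Both stage 9 signals lay below the floor, so MADS21 was at least 5.58-fold higher at stage 12 in RNAi and at least 3.80-fold in ZH11. With a floor of 2 times this height the log2 bound in ZH11 was 0.93, within 2-fold.

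The C class genes were higher at stage 12 on both pairs of arrays. MADS3, which acts in stamen identity and in later anther development, had 1059 at stage 12 and 434 at stage 9 in RNAi, 2.44-fold higher. In ZH11 MADS3 had 1132 at stage 12 and 708 at stage 9, 1.60-fold higher. MADS58, which acts mainly in floral meristem determinacy, had 3652 at stage 12 and 1475 at stage 9 in RNAi, 2.48-fold higher. In ZH11 MADS58 had 3331 at stage 12 and 1886 at stage 9, 1.77-fold higher. Both C genes were thus past 2-fold in RNAi and within it in ZH11, with the stage 9 RNAi array the lowest of the 4 for each.

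The 3 B class genes gave stage ratios close to each other. MADS16 (SPW1), the APETALA3-type gene needed for stamens and lodicules, had 12018 at stage 12 and 7522 at stage 9 in RNAi, and 11295 at stage 12 and 9226 at stage 9 in ZH11. MADS2, a PISTILLATA-type gene with a role in lodicules, had 8666 at stage 12 and 4647 at stage 9 in RNAi, and 8897 at stage 12 and 6802 at stage 9 in ZH11. For both, the 2 stage 12 arrays were the highest and the RNAi stage 9 array was the lowest. MADS4, the other PISTILLATA-type gene, had 2587 at stage 12 and 1554 at stage 9 in RNAi, and 2913 at stage 12 and 2273 at stage 9 in ZH11. Log2 stage ratios of the B genes ran from 0.68 to 0.90 in RNAi and from 0.29 to 0.39 in ZH11, none past 2-fold. With arrays scaled to a common median of all probe sets MADS2 in RNAi was past 2-fold, at 1.02, so that 5 of 10 members were.

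The E class had the smallest median stage ratio in both genotypes. MADS1 (LHS1), which acts in lemma and palea identity, had 9738 at stage 12 and 8221 at stage 9 in RNAi, and 9312 at stage 12 and 8872 at stage 9 in ZH11. MADS7, of the SEPALLATA type, had 6637 at stage 12 and 4830 at stage 9 in RNAi, and 5828 at stage 12 and 6028 at stage 9 in ZH11. MADS7 in ZH11 was the one stage ratio of a member below 0, with a log2 value of -0.05. MADS8, which acts redundantly with MADS7, had 6874 at stage 12 and 3947 at stage 9 in RNAi, and 6196 at stage 12 and 5116 at stage 9 in ZH11. Log2 stage ratios of the E genes ran from 0.24 to 0.80 in RNAi and from -0.05 to 0.28 in ZH11. In RNAi MADS8, at 0.80, lay above the B genes MADS4, at 0.74, and MADS16, at 0.68.

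By class, the median log2 stage ratio in RNAi was 2.97 for D, with 1 of its 2 genes at a bound, 1.30 for C, 0.74 for B and 0.46 for E. In ZH11 it was 2.59 for D, 0.75 for C, 0.36 for B and 0.07 for E. The RNAi and ZH11 stage ratios share no array, and the order of the class medians was the same in both. Between probe sets of one gene, log2 stage ratios had a standard deviation of 0.58 in RNAi and 0.56 in ZH11 over the array. Ratios beyond that spread were those of 8 of 10 members in RNAi and 4 of 10 in ZH11, where they were the C and D genes. Many other genes lay as far out. Past 1.5-fold, a slightly larger difference than either standard deviation, 24.1% of all genes measured were higher and 25.1% lower at stage 12 in RNAi. In ZH11 these shares were 27.1% and 23.5%, so the ZH11 count of members does not stand out. The standard deviation is a spread between probe sets on the same arrays and says nothing about the spread between plants.

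Markers of other tissues also differed between stages. Of the 12 tapetum markers measured, 7 were past 2-fold and lower at stage 12 in RNAi and none was higher, with a summed signal of 5214 at stage 12 and 32575 at stage 9. In ZH11, 10 of the 12 were lower and 1 was higher, with a sum of 5128 at stage 12 and 51899 at stage 9. None of the 6 late pollen markers measured was past 2-fold in RNAi, with a sum of 416 at stage 12 and 388 at stage 9. Of these, EXPB9, EXPB10 and ADF6 did not exceed the floor on either RNAi array and so had no ratio there. ADF1 and ACA1 did not exceed it at stage 9 in RNAi. In ZH11 all 6 were higher at stage 12, with a sum of 45115 at stage 12 and 402 at stage 9. Tapetum sums were thus lower at stage 12 in both genotypes, and the late pollen sum was far higher at stage 12 in ZH11. Of the 5 green tissue markers measured, 3 were higher at stage 12 in RNAi, with a sum of 17648 at stage 12 and 8024 at stage 9, and 4 were higher in ZH11, with 17067 at stage 12 and 10042 at stage 9. The 2 carpel and ovule markers measured, DL and MADS29, summed to 641 at stage 12 and 355 at stage 9 in RNAi. In ZH11 they summed to 522 at stage 12 and 411 at stage 9. MADS29 was below the floor on both stage 9 arrays, and its RNAi ratio was past 2-fold as a bound. Of the 4 meiocyte markers measured, 1 was past 2-fold and lower at stage 12 in RNAi and none in ZH11. The part of these tissues in the members' stage ratios was not tested.

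**Figure D2:**
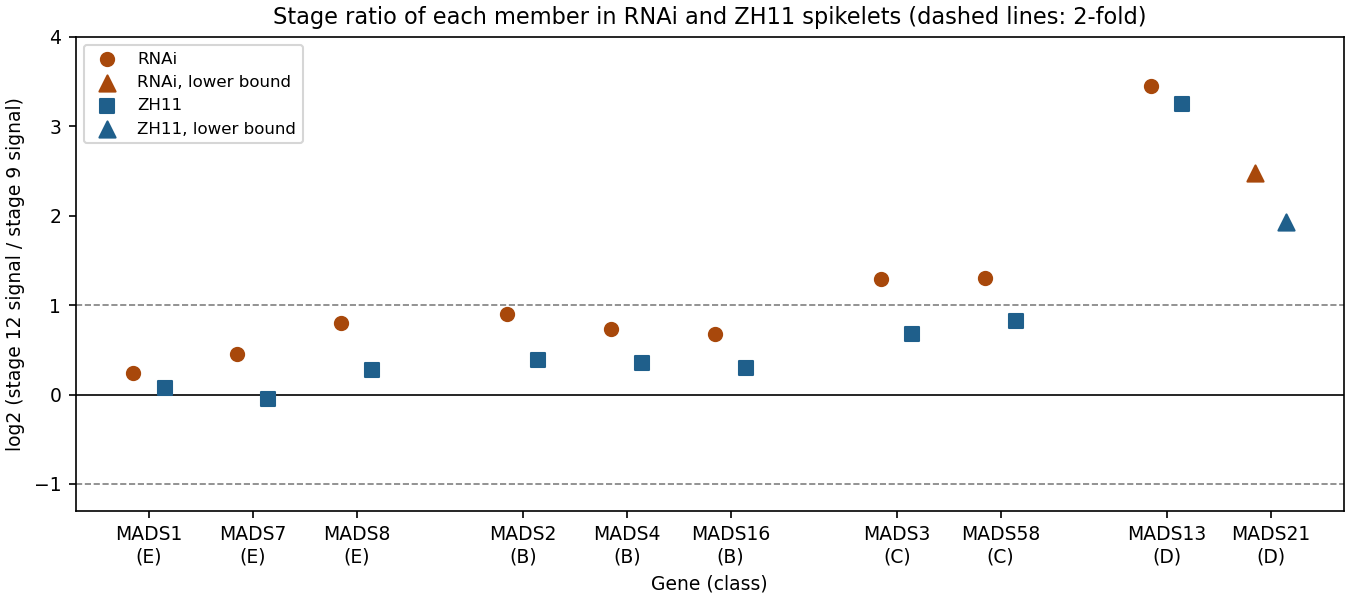
Log2 ratio of stage 12 to stage 9 signal for each member in RNAi (circles) and ZH11 (squares), with triangles for lower bounds and dashed lines at 2-fold. MADS13 stands at 3.45 in RNAi and 3.25 in ZH11, and each RNAi point lies above the ZH11 point of the same gene.

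Between genotypes at stage 12 the members lay close together. None of the 10 was past 2-fold, where 2.85% of all genes measured were higher and 7.03% lower in RNAi. The median log2 ratio of RNAi to ZH11 was 0.11 over the members, beside 0.02 over all genes. Of the members 7 of 10 were above 0, as were 53.9% of genes above the floor on both arrays. The E and D genes were above 0 and the B and C genes lay on both sides. MADS7 was at 0.19, MADS8 at 0.15 and MADS1 at 0.06 on the log2 scale. MADS16 was at 0.09, MADS2 at -0.04 and MADS4 at -0.17, and of the C genes MADS58 was at 0.13 and MADS3 at -0.10. Of the D genes MADS21 was at 0.55, the highest value of the 10 members, and MADS13 was at 0.19. MADS21 was the one member beyond the standard deviation of 0.32 between probe sets of one gene. The share of all genes beyond 0.32 was not counted. Scaling moved this comparison: under quantile normalization the median over all genes shifted by 0.13, and MADS2 and MADS3 then lay above 0, at 0.02 and 0.03. Higher calls were 28.9% of all calls on the deposited scale and 39.4% under quantile normalization, and 41.2% with arrays scaled to a common median of all probe sets.

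Late pollen markers in the same spikelets differed widely at stage 12, and the sums of the other lists lay closer together. All 6 late pollen markers measured of 10 sought were past 2-fold and lower in RNAi, with a summed signal of 416 in RNAi and 45115 in ZH11, and the RNAi signals of EXPB9, EXPB10 and ADF6 did not exceed the floor. The 2 carpel and ovule markers measured of 4 sought, DL and MADS29, had a summed signal of 641 in RNAi and 522 in ZH11. The tapetum markers summed to 5214 in RNAi and 5128 in ZH11, with 1 gene past 2-fold and higher in RNAi and 2 lower. Green tissue markers summed to 17648 in RNAi and 17067 in ZH11, and meiocyte markers to 1519 and 1204. No green tissue, meiocyte or carpel and ovule marker was past 2-fold. The part of these tissues in the members' genotype ratios was not tested.

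At stage 9 the members lay below 0 together. All 9 members above the floor had a lower signal in RNAi than in ZH11, and MADS21 was below the floor in both. None was past 2-fold, where 2.27% of all genes measured were lower and 3.28% higher. Among genes above the floor on both arrays, 56.5% had a log2 ratio below 0. Of the 10473 genes as bright as the members, a set that spans their whole wide range of signal, 58.6% did. The median log2 ratio over the 9 members was -0.35, beside -0.04 over all genes.

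The C class gene MADS3 had the lowest ratio, with a log2 value of -0.71, and MADS58 was at -0.35. Of the B class genes MADS2 and MADS4 were both at -0.55, below MADS58, and MADS16 was at -0.29. In the E class MADS8 was at -0.37, MADS7 at -0.32 and MADS1 at -0.11. MADS13 was near equal in both genotypes, at -0.02, and with quantile normalization it lay above 0, at 0.04. Class medians were -0.55 for B, -0.53 for C and -0.32 for E, and MADS13 was the one D gene measured. Between probe sets of one gene the standard deviation at stage 9 was 0.25, and 7 of 9 members lay beyond it, all but MADS1 and MADS13. The share of all genes beyond 0.25 was not counted, so this count has no background to be read against.

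Tapetum markers went both ways in this comparison. Of 12 measured of 16 sought, 5 were past 2-fold and lower and 1 higher in RNAi at stage 9, with a summed signal of 32575 in RNAi and 51899 in ZH11, and the RNAi signals of C6, RTS and CP1 did not exceed the floor. The 5 green tissue markers measured of 6 sought had no gene past 2-fold, with a summed signal of 8024 in RNAi and 10042 in ZH11. The 4 meiocyte markers measured of 7 sought had no gene past 2-fold either and summed to 2451 in RNAi and 1917 in ZH11. DL and MADS29 summed to 355 in RNAi and 411 in ZH11, with MADS29 below the floor in both. In the tapetum list, C6 alone had 45.4 in RNAi and 8767 in ZH11, a large part of the difference between the sums. The tapetum gene past 2-fold and higher in RNAi was PTC1, at 1.14 on the log2 scale. The part of these tissues in the members' stage 9 ratios was not tested.

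**Figure D3:**
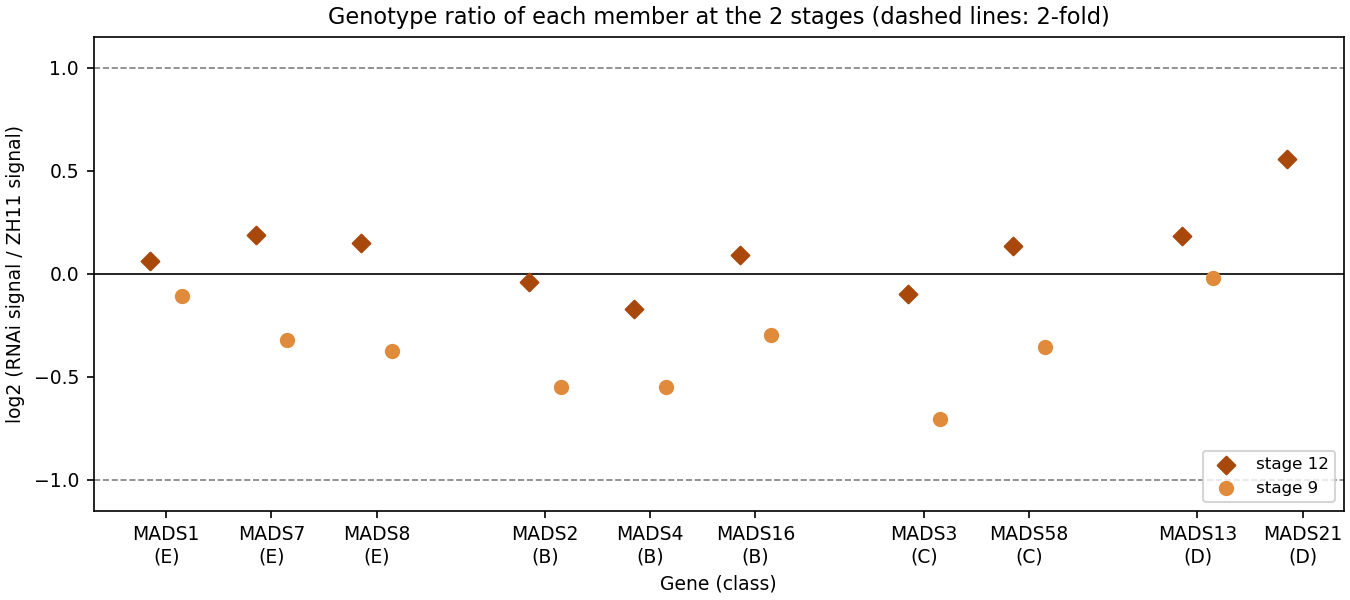
Log2 ratio of RNAi to ZH11 signal for each member at stage 12 (diamonds) and stage 9 (circles), with dashed lines at 2-fold. All points lie within 2-fold, and for each of the 9 members measured at both stages the stage 9 point is below the stage 12 point.

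The genotype ratio at stage 12 was above that at stage 9 for all 9 members measured at both stages. The difference ran from 0.17 for MADS1 to 0.61 for MADS3 on the log2 scale, with a median of 0.49, beside 0.05 over all genes measured at both stages. Among genes above the floor on all 4 arrays 53.7% had a difference above 0. No member differed by 2-fold or more, where 5.59% of genes had so large a positive difference and 7.19% so large a negative one. By class the median difference was 0.51 for E, 0.38 for B and 0.55 for C, and MADS13 had 0.21. These differences use the same 4 signals per gene as the stage ratios of RNAi and ZH11 and are not a second measurement.

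The rest of the MADS-box family on the array, 21 genes, was set beside the members. At stage 12, 3 of 15 measured were past 2-fold and lower in RNAi, against 7.03% of all genes measured. None was higher, against 2.85%. MADS23 had 39.2 in RNAi and 321 in ZH11, at least 4.51-fold lower. MADS27 had 39.8 in RNAi and 198 in ZH11, at least 2.79-fold lower, and MADS47, of the SVP type, had 65.3 in RNAi and 162 in ZH11, at least 2.28-fold lower. All 3 were above the floor on the ZH11 stage 12 array only. They counted as measured through that array alone, so their ratios could only be below 0. With a floor of 2 times this height MADS27 and MADS47 were within 2-fold, at -0.48 and -0.19 on the log2 scale, and MADS23 was at -1.17. With the mean over the probe sets of a gene MADS27 was within 2-fold, at -0.79, and MADS23 was at -1.09, where its brightest probe set gave -2.17. MADS22, the third SVP-type gene, had 633 in RNAi and 1166 in ZH11, a log2 ratio of -0.88, and MADS26 had the highest ratio, a bound of 0.76, with 120 in RNAi and 59.6, below the floor, in ZH11.

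At stage 9, 1 of 12 measured was past 2-fold, where 2.27% of all genes measured were lower and 3.28% higher. MADS55, also of the SVP type, had 224 in RNAi and 712 in ZH11, 3.18-fold lower in RNAi. At stage 12 it lay below the floor in both genotypes, with signals of 67.1 in RNAi and 66.6 in ZH11. Of the 12, 8 lay below 0, and the median log2 ratio was -0.10, against -0.35 for the members. The AGL6-type genes MADS6 and MADS17 were at -0.08 and -0.19, and the SEPALLATA-type genes MADS5 and MADS34 were at -0.15 and 0.44. The A class and FUL-type genes MADS14, MADS15 and MADS18 were at 0.04, -0.06 and -0.11. The difference between the members and these genes was not tested.

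By stage the other MADS-box genes went both ways. In RNAi 9 of 13 measured lay above 0, with a median log2 ratio of 0.44. There 1 was past 2-fold and higher at stage 12 and 2 were lower. In ZH11 9 of 16 lay above 0, with a median of 0.13, 3 past 2-fold and higher and 2 lower. MADS55 was lower at stage 12, with log2 bounds of -1.65 in RNAi and -3.325 in ZH11. MADS23, MADS27 and MADS47 were higher at stage 12 in ZH11, with bounds of 2.17, 1.48 and 1.19, and could only be above 0. MADS5 was lower at stage 12, with 2078 at stage 12 and 4197 at stage 9 in RNAi, and 1436 at stage 12 and 4671 at stage 9 in ZH11. MADS29, a B-sister gene of developing seeds, resembled MADS21: it had 187 at stage 12 and 23.2 at stage 9 in RNAi, and 129 at stage 12 and 17.8 at stage 9 in ZH11. It was at least 2.63-fold higher at stage 12 in RNAi and at least 1.81-fold in ZH11, and with 2 times the floor the log2 bound in RNAi was 0.40, within 2-fold. Neither MADS20 of the FUL type nor MADS30 of the B-sister type was above the floor on any array.

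**Figure D4:**
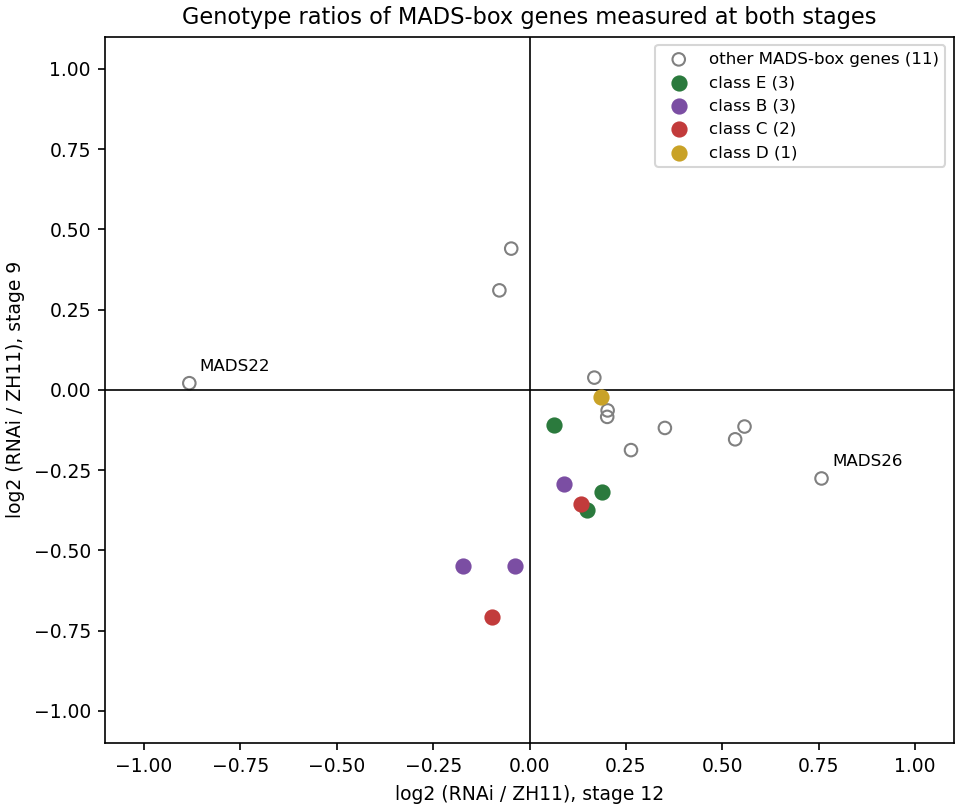
Log2 ratio of RNAi to ZH11 at stage 12 (horizontal) and at stage 9 (vertical) for the 9 members (filled, by class) and 11 other MADS-box genes (open) measured at both stages. The stage 12 value of MADS26 is a bound, and the 2 ratios share no array. The 9 members lie below 0 on the vertical axis, where 7 of the 11 others also lie.

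Of 13 other floral regulators sought, 6 were measured, and none was past 2-fold between genotypes at either stage. DROOPING LEAF (DL), a YABBY gene of carpel identity, had 454 in RNAi and 393 in ZH11 at stage 12, and 332 in RNAi and 394 in ZH11 at stage 9. FON1, a receptor kinase limiting floral meristem size, had 1012 in RNAi and 716 in ZH11 at stage 12, and 663 in RNAi and 566 in ZH11 at stage 9. For the auxin response factor gene ETTIN1 the log2 ratio was 0.10 at stage 12 and -0.17 at stage 9, and for ETTIN2 it was 0.37 at stage 12 and -0.10 at stage 9. For LAX1, a bHLH gene of axillary meristems, it was 0.15 at stage 12 and -0.39 at stage 9, and APO2 was below the floor on all 4 arrays. Between stages ETTIN2 was past 2-fold, 2.35-fold lower at stage 12 in RNAi and 3.23-fold lower in ZH11.

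The genes with the nearest pattern were taken from 1967 named genes above the floor on all 4 arrays, by the Euclidean distance of 4 centred log2 signals from the class median. For the E class the nearest was DL, at a distance of 0.062, followed by MPK11 and HK3 at 0.062 and 0.071. The members themselves stood 0.089 to 0.291 from their class median. For the B class they were CPA, CBP1 and S1FA2 at 0.079, 0.084 and 0.102, for the C class LSD1, CIPK10 and PETE at 0.067, 0.117 and 0.136, and for the D class EDR1-like, APX8 and OSE727A at 0.121, 0.179 and 0.211. The D class median includes MADS21 at the floor on both stage 9 arrays.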

How the data were processed

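Gene expression in rice spikelets was read from 1 deposited table of linear intensity values (a signal for each probe set on each array). The submitters' processing notes name MAS5 and no other tool. Which version and scaling target were used was not stated in the labels, and no detection calls were used here. Of 57381 probe sets, 123 were controls, 22436 had 1 gene in the platform annotation, 95 several and 34727 none. Only probe sets with 1 gene were used. For a gene with several, the brightest by mean log2 signal stood for it. Names came from RefSeq (assembly ASM3414082v1), whose gene table held all 17905 genes. MADS2 is a name of 2 genes there, and the one that is also MADS18 was counted as MADS18. ETTIN1 and ETTIN2 were sought as ETT1 and ETT2 and found under the longer names. Sequences were not used here.

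The floor, 71.1, was the mean over arrays of the trimmed mean (2% off each end) divided by 5. Groups followed the sample titles. With 1 array a group, log2 ratios of floored signals were described by counts past 2-fold and by medians, with no test. The ratio step was tested on simulated data. Named by rule were all members, other MADS-box genes past 2-fold between genotypes, the floral regulators sought, and the 3 nearest named genes per class. MADS-box genes outside the members that were within 2-fold between genotypes were named after their values were seen. Members and lists were chosen with earlier results of these data known. Genes as bright as the members were those above the floor on all 4 arrays with a mean log2 signal in the range of the 9 members that were. Python 3.11.15, pandas 2.3.3 and numpy 2.4.6 were used.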

Additional observations from a re-analysis of the deposited data

Results flagged for a closer look

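The genotype ratio pointed in opposite directions at the 2 stages for 6 members, above 0 at stage 12 and below 0 at stage 9. The share of all genes that did so was not counted. Among genes above the floor on both arrays compared, 53.9% were above 0 at stage 12 and 56.5% were below 0 at stage 9. MADS13 was near 0 at stage 9 and lay above 0 there, at 0.04, under quantile normalization. None of these differences was tested, and all were within 2-fold. The log2 ratio at stage 12 minus that at stage 9 was 0.17 for MADS1, 0.51 for MADS7, 0.52 for MADS8, 0.38 for MADS16, 0.49 for MADS58 and 0.21 for MADS13. Among the floral regulators it was 0.45 for DL, 0.27 for ETTIN1, 0.46 for ETTIN2 and 0.54 for LAX1.

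The stage ratio pointed in opposite directions in the 2 genotypes for MADS7, DL and LAX1, above 0 in RNAi and below 0 in ZH11. The log2 ratio in RNAi minus that in ZH11 was 0.51 for MADS7, 0.45 for DL and 0.54 for LAX1, which are the same differences seen from the stages. No group held enough arrays for a search for outlying samples.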

How the results depend on the processing

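Most results held their side of 2-fold and moved by less than the spread between probe sets. Under quantile normalization, and with arrays scaled to a common median of all probe sets (added after seeing the data), 1 member, MADS13, lay above 0 at stage 9 between genotypes, and at stage 12 only 1 member, MADS4, lay below 0. The median log2 ratio of the members at stage 9 ran from -0.37 to -0.30 over all alternatives, and that of the difference between stages from 0.44 to 0.58. With 2 times the floor, 1 member was past 2-fold by stage in ZH11. Leaving out probe sets of suffix _a_at, _s_at or _x_at removed MADS3, MADS7, MADS13 and MADS21, all 4 read by _a_at probe sets, which mark alternative transcripts of one gene, so that 4 of 6 members lay above 0 at stage 12 between genotypes. By stage, 1 of the 6 was then past 2-fold in RNAi and 0 in ZH11, and all 6 were above 0 in RNAi. At 1.5-fold in place of 2-fold, 8 members were higher by stage in RNAi and 4 in ZH11, 1 was lower between genotypes at stage 9, and 1 had so large a positive difference between stages, against 24.1%, 27.1%, 6.32% and 14.9% of all genes measured. The order of the class medians by stage held under 7 of 8 alternatives in each genotype, and without probe sets of these suffixes no D gene was left. No paired analysis was possible because each group is 1 array. Precision is limited by having 4 arrays in all.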

Other observations

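Members were set beside the protein-coding genes next to them in the RefSeq order, a comparison chosen after values were seen. MADS33 lies next to MADS13 and was below the floor on all 4 arrays, with signals of 25.5 in RNAi and 22.98 in ZH11 at stage 12 and of 17.1 in RNAi and 20.04 in ZH11 at stage 9, where MADS13 was several-fold higher at stage 12. DL lies next to MADS1 and was also the gene of nearest pattern to the E class median, with MPK11 almost as near. The genotype ratio of DL differed by 0.45 between stages, and that of MADS1 itself by 0.17. SLP16, next to MADS7, was lower at stage 12, with 132 at stage 12 and 2253 at stage 9 in RNAi, and 110 at stage 12 and 2362 at stage 9 in ZH11.

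LOC4346135, on the other side of MADS7, was past 2-fold and higher in RNAi at both stages. It had 236 in RNAi and 48.6 in ZH11 at stage 12, a bound of 1.73 on the log2 scale, and 202 in RNAi and 84.2 in ZH11 at stage 9, a log2 ratio of 1.26. The gene table used here gives it no name. LOC4342048, next to MADS16, was past 2-fold the other way at stage 12, with 590 in RNAi and 1562 in ZH11. Neighbours not named here were also past 2-fold by stage, some higher and some lower at stage 12. Those named are a selection.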
